A study of Homo sapiens with 36 samples.

Results

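The distal enhancers that were called only in A549 comprised 630 regions of the hg38 genome. They were selected on peak calls: each was an A549 H3K27ac peak on chromosomes 1 to 12 that overlapped an A549 Med1 peak, lay more than 1 kb from every GENCODE start site, overlapped no A549 H3K4me3 peak, and met neither an H3K27ac nor a Med1 peak in B2B. Of the 28190 A549 H3K27ac peaks on these chromosomes, 9844 overlapped Med1, 2534 of those lay more than 1 kb from a start site, and 1183 of those lacked H3K4me3. The latter 1183 were the A549 distal enhancers, of which 630 met no B2B peak and 553 met at least 1. The same rule with the lines exchanged gave 1007 B2B-only distal enhancers, which served with the 553 shared elements as the sets for comparison.

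The data were ChIP-seq peak lists from A549, a human lung adenocarcinoma cell line, and from BEAS-2B (B2B), an immortalised, non-cancerous human bronchial epithelial line, both without any treatment named in the labels. RNA polymerase II (pol II), H3K4me3, Med1, H3K27ac, JunB, Jun and JunD were profiled in both lines, and CTCF and Rad21 lists were used here for B2B alone. The labels gave 2 replicates per group, which the authors merged before peak calling, so that each of the 16 lists stood for 1 pool and no value below has a spread between replicates. Each line stood for 1 cell line, and differences between them cannot be told apart from differences between cancer and non-cancer cells or between alveolar and bronchial cells.

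An enhancer is a stretch of DNA that raises transcription of a gene at a distance when transcription factors bind it. Its flanking nucleosomes carry acetylated lysine 27 on histone H3 (H3K27ac), and the Mediator complex, of which Med1 is a subunit, connects the bound factors to pol II. Jun, JunB and JunD are basic leucine zipper proteins that form the AP-1 factor as dimers, mostly with Fos-family partners, and bind TGACTCA or TGAGTCA. NRF2, encoded by NFE2L2, is a related factor that pairs with a small Maf protein on antioxidant response elements (TGACNNNGC) beside genes for detoxification, glutathione and thioredoxin metabolism. A549 cells are known for an inactive KEAP1, the adaptor that marks NRF2 for degradation, and for a homozygous loss of the CDKN2A locus.

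Sequences were read around elements with a high Med1 fold enrichment and around those with the strongest Jun-family peaks, to show which letters lay under the summits. Each is the plus strand of hg38, from 100 bp before to 100 bp after a summit, with AP-1 letters (TGACTCA or TGAGTCA) and NRF2 letters (TGACNNNGC, or its reverse complement) in capitals.

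The first group was centred on the Med1 summit of elements among the strongest, each named for its nearest protein-coding gene. A summit can lie beside the H3K27ac peak that met the rule, so a window need not overlap the element.

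TOMM20 element, chr1:235073647-235073847: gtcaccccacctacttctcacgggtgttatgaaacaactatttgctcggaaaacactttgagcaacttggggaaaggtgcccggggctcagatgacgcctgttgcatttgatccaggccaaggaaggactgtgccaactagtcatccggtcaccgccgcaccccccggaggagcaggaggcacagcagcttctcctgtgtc

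TXNRD1 element, chr12:104220042-104220242: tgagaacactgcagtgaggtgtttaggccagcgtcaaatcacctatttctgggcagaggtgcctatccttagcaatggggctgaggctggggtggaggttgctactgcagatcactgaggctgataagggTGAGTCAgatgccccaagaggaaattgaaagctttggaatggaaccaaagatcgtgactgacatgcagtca

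UGT1A6 element, chr2:233700142-233700342: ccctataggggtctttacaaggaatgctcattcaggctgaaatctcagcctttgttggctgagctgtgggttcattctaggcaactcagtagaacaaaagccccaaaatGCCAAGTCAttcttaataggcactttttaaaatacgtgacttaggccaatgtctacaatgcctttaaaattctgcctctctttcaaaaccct

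GPRIN2 element, chr10:46530339-46530539: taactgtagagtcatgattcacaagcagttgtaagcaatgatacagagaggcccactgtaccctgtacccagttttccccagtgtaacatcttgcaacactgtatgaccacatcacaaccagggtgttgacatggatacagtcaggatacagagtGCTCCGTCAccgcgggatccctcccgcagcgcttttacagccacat

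AKR1C2 element, chr10:5009279-5009479: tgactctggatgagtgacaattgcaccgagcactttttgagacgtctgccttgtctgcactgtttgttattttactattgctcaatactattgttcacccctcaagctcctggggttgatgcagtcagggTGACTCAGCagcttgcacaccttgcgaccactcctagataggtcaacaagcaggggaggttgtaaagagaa

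The second group was centred on the A549 Jun summit of the elements with the highest summed Jun-family fold enrichment. Both Jun summits lay outside the H3K27ac peak that met the rule, and neither window overlaps its element.

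EDN1 element, chr6:12492449-12492649: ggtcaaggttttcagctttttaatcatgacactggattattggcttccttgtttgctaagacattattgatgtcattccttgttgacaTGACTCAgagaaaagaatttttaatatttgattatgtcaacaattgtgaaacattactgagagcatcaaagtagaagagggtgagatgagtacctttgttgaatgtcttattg

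ARID5A element, chr2:96556957-96557157: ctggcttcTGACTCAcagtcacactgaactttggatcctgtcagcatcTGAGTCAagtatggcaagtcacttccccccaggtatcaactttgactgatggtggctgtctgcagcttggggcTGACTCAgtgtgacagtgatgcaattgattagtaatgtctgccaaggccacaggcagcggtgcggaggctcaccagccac

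The AKR1C2 window held a TGACTCAGC word, which was at once an AP-1 word and an NRF2 word, at position 131 counted from its 5′ end. The UGT1A6 and GPRIN2 windows each held 1 NRF2 word apart from any AP-1 word, at positions 110 and 156. The TXNRD1 window held 1 AP-1 word, and the TOMM20 window held neither in these letters. Among the elements, 3 of the 630 had their Med1 summit within 1 kb of a start site. The ARID5A window held 3 AP-1 words around its Jun summit, and the EDN1 window held 1.

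The label was checked against marker genes of each line by H3K4me3 within 1 kb of a start site. Of 11 alveolar or epithelial adenocarcinoma markers, 9 carried it in A549 and 7 in B2B, and SFTPB and SFTPA1 did not in either line. AKR1B10, AKR1C1, ALDH3A1, ALDH1A1 and NQO1, which mark active NRF2 in A549, carried it in 5 of 5 cases there and in 1 of 5 in B2B. Of 5 basal airway markers, 2 carried it in A549 and 1, KRT17, in B2B, and KRT5 had no peak in any list of either line. The 2 in A549 were TP63 and S100A2, which lacked it in B2B, so the basal markers did not bear out the bronchial label. CDKN2A and CDKN2B had no peak of any kind in A549. MTAP, also listed as deleted in A549, went the other way, with H3K4me3 and 5 peaks there. The immune, endothelial and fibroblast lists of 4 genes each had H3K4me3 at 0, 1 and 2 genes in A549, and at 1, 1 and 1 in B2B. On chromosomes 1 to 12 the A549 list held 21589 H3K4me3 peaks and the B2B list 17230. The share of all coding genes with H3K4me3 was not counted in either line, so these counts alone do not establish a cell label.

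The members were described first by the values that chose them, for which no test was made. Fold enrichment is the caller's ratio of reads at the summit to its local background. H3K27ac fold enrichment ran from 3.07 to 57.2 with a median of 10.4, and that of the overlapping Med1 peak from 2.65 to 52.7 with a median of 6.58. Members that shared a Med1 peak carry the same Med1 value. The peaks were 181 to 2673 bp wide, with a median of 344 bp, and the pileup behind them, solved from fold enrichment and p-value, had a median of 35.0 reads for H3K27ac (solved for 629 members) and 20 reads for Med1. The shared A549 elements were wider, with a median of 562 bp, and had a median H3K27ac fold enrichment of 16.0.

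**Figure D1:**
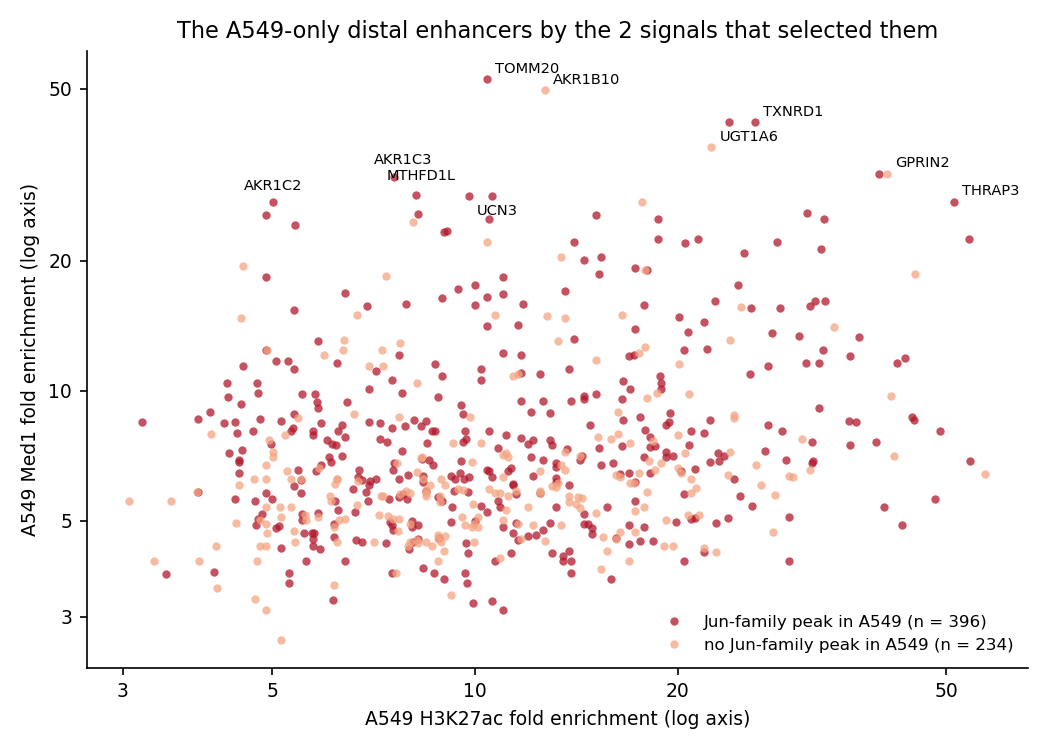
A549 Med1 against A549 H3K27ac fold enrichment of the 630 A549-only distal enhancers, both on log axes, 1 point per element, coloured by whether a JunB, Jun or JunD peak in A549 overlapped it. The named elements are the 10 with the highest Med1 values (1 per run of neighbours), which lie between 27.3 and 52.7 on the Med1 axis but spread from 5.02 to 51.3 on the H3K27ac axis.

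Members near the limits of the rule were also listed. The member nearest to a start site was 1024 bp away, and the farthest peak left out for this reason alone was 979 bp away. A B2B H3K27ac or Med1 peak lay within 1 kb of 101 members, the closest 5 bp away, against a median gap of 13781 bp. The smallest overlap that removed an A549 distal enhancer was 11 bp. The lowest −log10 q was 2.10 for H3K27ac and 2.46 for Med1, with 21 and 82 members under 5. The absence of a B2B call is not an absence of signal. The background at called B2B H3K27ac peaks had a median of 11.1 reads against 2.27 reads in A549, over the peaks for which it could be solved. It was 5.07 reads at the B2B-only distal enhancers and 2.30 reads at the members, each in its own line. The B2B background at the members was not read, and the part of background in the result was not tested.

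The 10 strongest members by Med1 lay beside genes of several kinds. Each Med1 value is that of the overlapping Med1 peak, at its summit. This summit lay outside the element near TOMM20, AKR1B10, TXNRD1, GPRIN2, MTHFD1L, THRAP3 and AKR1C2. The highest Med1 fold enrichment was 52.7, for the element chr1:235075995-235076445, which was 43.7 kb from the start of TOMM20, a receptor of mitochondrial protein import. Its H3K27ac fold enrichment was 10.4, and JunB (4.82), Jun (6.68) and pol II (64.7) peaks overlapped it in A549, with none of these in B2B. The second was 1.22 kb upstream of AKR1B10, an aldo-keto reductase, with Med1 at 49.7 and H3K27ac at 12.7. That Med1 summit lay 40 bp from a start site, so the value was measured at a promoter and not at the distal H3K27ac peak. No Jun-family or pol II peak of either line met that element.

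In an intron of TXNRD1, the cytosolic thioredoxin reductase, chr12:104218583-104219230 had Med1 at 41.8 and H3K27ac at 26.0. Its Jun fold enrichment of 55.1 was far above its JunB value of 4.41, and no JunD peak was called. At UGT1A6, a glucuronosyltransferase, the element chr2:233699941-233700250 had Med1 at 36.6 and pol II at 14.1, without a Jun-family peak in either line. The UGT1A genes share their 3′ exons and the element lay within introns of other members of the cluster, so that the nearest gene is a position and not an assignment.

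The element chr10:46529806-46530158, nearest to GPRIN2, had Med1 at 31.8 and H3K27ac at 40.9. Elements near AKR1C3 and AKR1C2, reductases of ketosteroids and aldehydes, had Med1 at 31.3 and 27.3. AKR1C genes are close paralogs, GPRIN2 and FAM25C lie in duplicated parts of chromosome 10, and how reads with several alignments were treated is not given in the sources used here, so values at these loci are uncertain. The 10 strongest were completed by elements near MTHFD1L, a mitochondrial enzyme of folate metabolism, with Med1 at 28.4, UCN3, a urocortin gene beyond the AKR1C cluster, at 28.2, and THRAP3, an mRNA processing protein, at 27.4. The UCN3 element was the one of these 10 at which B2B pol II (7.11) and B2B CTCF (14.7) peaks were called.

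Jun-family peaks overlapped most members in A549. JunB met 345 of 630 (54.8%, Wilson 95% interval 50.9 to 58.6), Jun met 347 (55.1%, 51.2 to 58.9) and JunD met 114 (18.1%, 15.3 to 21.3). Among all 9995 A549 H3K27ac peaks over 1 kb from a start site and without H3K4me3, with or without Med1, JunB met 15.9%, Jun 15.5% and JunD 3.65%. These background peaks had a median width of 291 bp, narrower than the members. All intervals cover counting error over elements only, and neighbouring elements share peaks.

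At least 1 Jun-family protein met 396 members (62.9%), and 234 met none. JunB with Jun but without JunD was the most frequent pattern, at 187 members, followed by all 3 proteins together at 111. JunD came almost always with both others, as 1 member had JunD with Jun only and 2 had JunD alone. Jun alone met 48 members and JunB alone 47. Fold enrichment at the members was above the level of the whole list for each protein. The median was 22.1 for Jun at members against 9.50 over all A549 Jun peaks, 11.8 against 6.89 for JunB, and 7.40 against 5.59 for JunD. At the shared A549 elements the medians were 23.9 for Jun, 13.6 for JunB and 7.08 for JunD, so this was not particular to the members. Each element was given the value of its strongest overlapping peak.

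Among members met by all 3 proteins, 5 elements had the highest summed fold enrichment, from 113 to 127. The first lay 202 kb from EDN1, the endothelin precursor gene, with Jun at 84.0, JunB at 22.9 and JunD at 19.7. The element 10.1 kb from ARID5A, an RNA-binding regulator of inflammatory transcripts, had Jun at 66.6, JunB at 39.9 and JunD at 12.8, but a H3K27ac fold enrichment of 5.53. For the EDN1 and ARID5A elements the A549 Jun summit lay outside the element. The others were nearest to MTNR1B, a melatonin receptor, TRIB1, a pseudokinase, and FAM25C, with sums of 117, 117 and 113. A B2B Jun peak met each of these 5 as well, with B2B fold enrichments between 5.24 and 33.4.

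In B2B, where by the rule no member carried H3K27ac or Med1, Jun met 148 members (23.5%, 20.3 to 27), JunB 41 (6.51%, 4.83 to 8.71) and JunD 20 (3.17%, 2.06 to 4.85). Over the 9995 background peaks these shares were 12.9%, 4.19% and 2.01%. Of the 148 members with B2B Jun, 140 also had A549 Jun. The B2B Jun peaks at members had fold enrichments with quartiles of 7.77 and 19.7, against a median of 8.78 over the whole B2B Jun list. In all, 148 members had a Jun-family peak in both lines, 248 in A549 only, 4 in B2B only and 230 in neither.

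**Figure D2:**
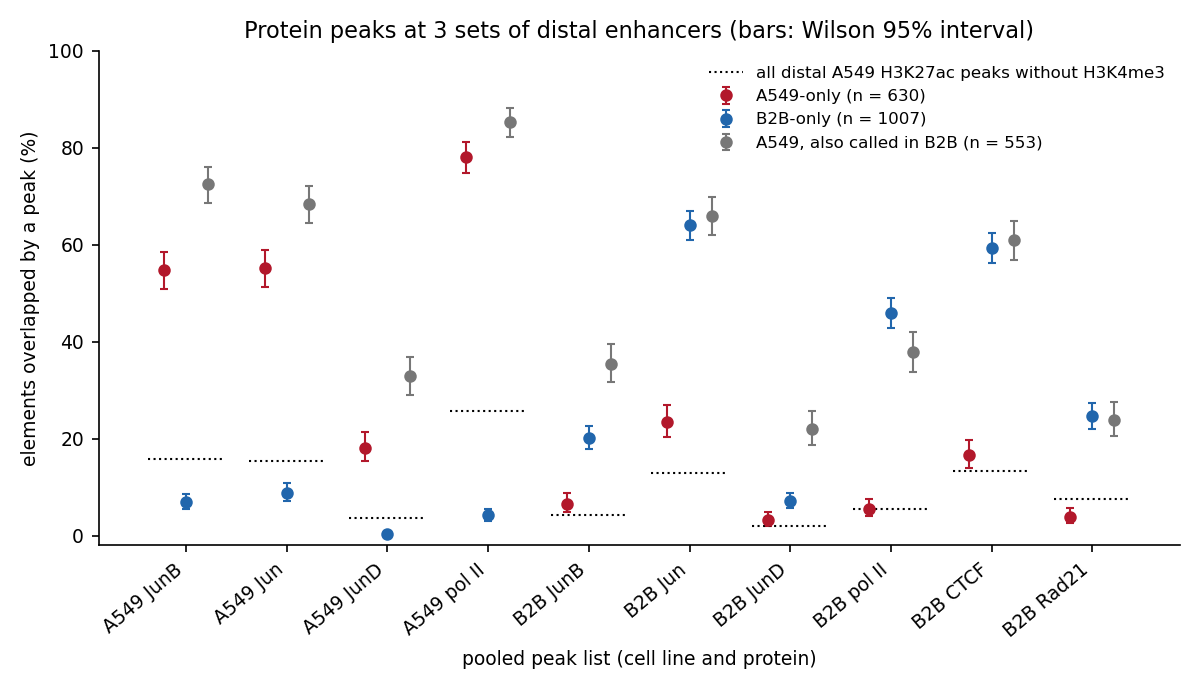
Share of elements overlapped by a peak of each list (vertical axis, percent) for the A549-only, B2B-only and shared A549 distal enhancers. Points are shares and bars Wilson 95% intervals. Dotted lines mark the share over all distal A549 H3K27ac peaks without H3K4me3, and the A549-only elements sit well above them for the 4 A549 lists, above for B2B Jun, and close to them for B2B pol II.

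Each set was then compared by the Jun-family peaks of its own line, which the rule did not use. JunB met 54.8% of A549-only and 20.2% of B2B-only elements, a difference of 34.6 points (Newcombe 95% interval 29.9 to 39.1). The A549 JunB list was longer, with 19926 peaks against 6318 in B2B on chromosomes 1 to 12. With the longer list reduced to the length of the shorter by p-value, A549 JunB met 35.7% of members and the difference was 15.6 points (11.1 to 20). JunD met 18.1% and 7.05%, a difference of 11.0 points (7.73 to 14.5). Jun went the other way, at 55.1% of A549-only and 64.0% of B2B-only elements, a difference of -8.87 points (-13.7 to -3.99). It was -5.10 points (-10 to -0.190) with lists of equal length. For any Jun-family peak the shares were 62.9% and 64.0%, and the interval of the difference, -5.91 to 3.66 points, held 0.

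The other line's Jun was also found unequally. B2B Jun met 23.5% of A549-only elements, while A549 Jun met 8.84% of B2B-only elements, a difference of 14.7 points (11.0 to 18.5). The B2B Jun list was longer, with 32978 peaks against 24939 in A549, and the part of list length in this difference was not tested. Against the shared A549 elements, the members had fewer A549 peaks of JunB (-17.8 points, -23.0 to -12.3), Jun (-13.3 points, -18.7 to -7.74) and JunD (-14.8 points, -19.7 to -9.86). The shared elements were wider than the members, and the part of width in these differences was not tested.

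Pol II met 492 members in A549 (78.1%, 74.7 to 81.1) and 35 in B2B (5.56%, 4.02 to 7.63), where the background shares were 25.7% and 5.44%. The A549 pol II peaks at members had a median fold enrichment of 14.9 against 6.80 over the list, and reached 121. At the shared A549 elements the median was 15.0. Each element took the value of its strongest overlapping pol II peak, whose summit need not lie in the element. Neighbours could share a peak, as members within PGD did at 114, while the list median counts each peak once. Own-line pol II met 46.0% of B2B-only elements, 32.1 points fewer (27.5 to 36.4), while the A549 pol II list held 33170 peaks and that of B2B 16953. With A549 pol II reduced to the length of the B2B list the share of members was 69.7%. Members with a Jun-family peak in A549 had pol II in 88.1% of cases (84.6 to 91.0), and those without in 61.1% (54.7 to 67.1). The former also had a higher median Med1 fold enrichment, at 7.30 against 5.92, and a median width of 367 bp against 324 bp.

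CTCF, the main insulator protein, and the cohesin subunit Rad21 were read in B2B only. CTCF met 105 members (16.7%, 14.0 to 19.8) and Rad21 24 (3.81%, 2.57 to 5.61), against background shares of 13.3% and 7.59%. At the B2B-only elements the shares were 59.4% and 24.6%, and at the shared elements 60.9% and 23.9%. The members thus differed from the B2B-only set by -42.7 points (-46.8 to -38.4) for CTCF and by -20.8 points (-23.8 to -17.7) for Rad21. Both other sets carried H3K27ac or Med1 in B2B by their definition, so that this is a description. The letters of the CTCF core lay under 0.503% of the members' Med1 summits and 0.859% of those of B2B-only elements.

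The summits of the overlapping peaks were close to the Med1 summits. The 630 members had 596 separate Med1 summits, since neighbouring H3K27ac peaks could share a Med1 peak, and 53.3% of members held their Med1 summit inside the H3K27ac peak. A JunB summit was within 100 bp of 41.3% of Med1 summits (37.4 to 45.3), a Jun summit of 43.0% (39 to 47) and a JunD summit of 23.0% (19.8 to 26.5). A B2B Jun summit was within 100 bp of 22.0% (18.8 to 25.5). For summits within 1 kb the median distance was 85.0 bp for JunB, 84.0 bp for Jun and 72.5 bp for JunD, against 156 bp for H3K27ac. Of the 330 JunB peaks that met members, 35.2% had their summit inside a member, and of the 340 Jun peaks 24.4%. Of the 234 members without a Jun-family peak in A549, 53 had one over their Med1 peak, beyond the H3K27ac peak itself.

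**Figure D3:**
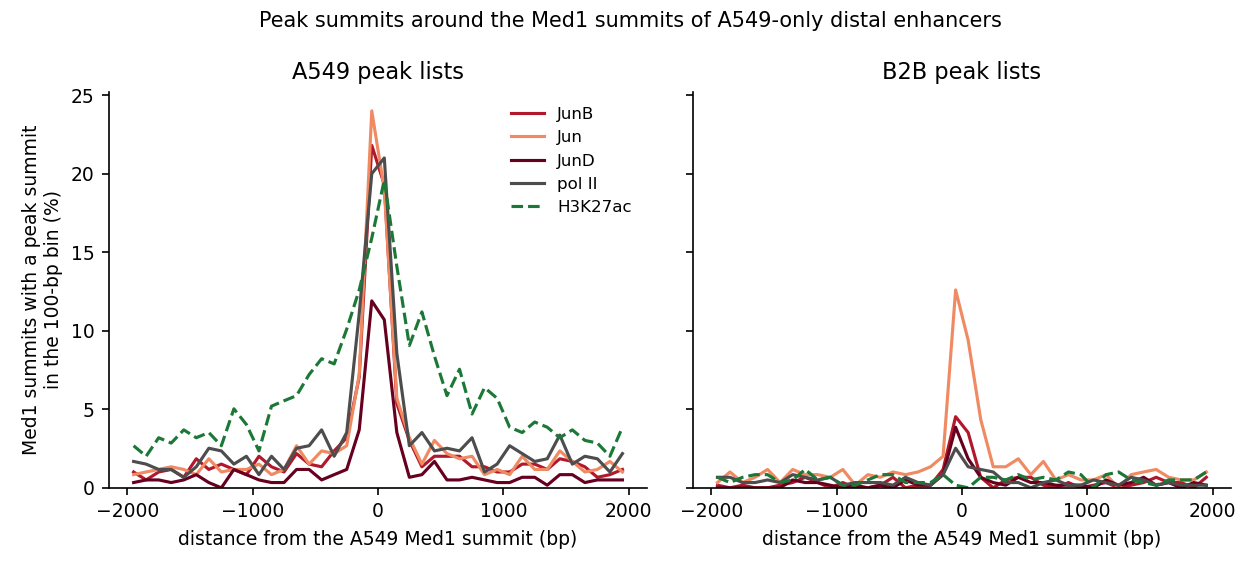
Share of the 596 Med1 summits of A549-only distal enhancers (vertical axis, percent) with a peak summit of each list in 100-bp bins by distance from the Med1 summit (horizontal axis, bp), for A549 lists on the left and B2B lists on the right. JunB, Jun, JunD and pol II in A549 peak at the Med1 summit, H3K27ac is broader, and among the B2B lists Jun is the highest at the centre.

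Motif letters were searched on both strands within 100 bp of each Med1 summit, for 16 motifs. AP-1 and NRF2 were spelled as above. The factors of the YAP pathway, TEAD, were read as GGAATG. The pioneer factors FOXA were read as TGTTTAC or TATTTAC, and the CEBP zippers as TTGCNNAA or TTNNGCAA. HNF4, a nuclear receptor of endodermal tissues, was read as CAAAGTCCA, and RUNX as TGTGGTTT. CRE was read as TGACGTCA. GATA factors were read as AGATAAG, ETS factors as CCGGAAGT and the epithelial GRHL factors as AACCGGTT. KLF factors were read as GGGCGTG and NKX2 factors, which include the lung regulator NKX2-1, as CACTTGA. HNF1, the glucocorticoid element and the CTCF core were searched as well. For CRE, ETS, GATA, GRHL, KLF, NKX2, HNF1, the glucocorticoid element and the CTCF core, the interval of the difference between A549-only and B2B-only summits held 0. NRF2 letters can overlap AP-1 letters, as in TGACTCAGC, and were therefore also counted where they overlapped none. A match is a description of the letters and not a bound site.

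AP-1 letters lay under 164 of 596 summits (27.5%, 24.1 to 31.2), against 5.29% of windows 2 kb away and 8.86% of all A549 Med1 summits. NRF2 letters lay under 131 (22.0%, 18.8 to 25.5), against 7.80% and 10.8%. Both were found in 63 windows. NRF2 letters apart from AP-1 letters were found in 94 windows (15.8%, 13.1 to 18.9), against 7.30% and 9.25%. CEBP letters were found in 13.6% of windows (8.39% 2 kb away, 7.08% of all A549 Med1 summits), TEAD letters in 14.6% (11.8% and 10.0%) and FOXA letters in 7.72% (5.79% and 3.71%). The 364 remaining windows had neither AP-1 nor NRF2 letters.

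The members and the B2B-only elements differed in these letters, each read at the Med1 summits of its own line. AP-1 letters were more frequent at the members, at 27.5% against 14.7% (12.8 points, 8.60 to 17.1), as were NRF2 letters, at 22.0% against 10.6% (11.3 points, 7.54 to 15.3). NRF2 letters apart from AP-1 differed by 6.32 points (2.93 to 9.90), CEBP by 6.93 points (3.84 to 10.2) and FOXA by 5.46 points (3.25 to 8.01). At B2B-only summits the FOXA share was 2.26%, below the 6.28% of windows 2 kb away from them, and the CEBP share was 6.66%, against 8.81%. These differences therefore hold lower shares at the B2B-only summits as well as higher ones at the members. For AP-1, NRF2 and TEAD the shares 2 kb away from B2B-only summits were 4.03%, 7.73% and 11.4%. HNF4 letters lay under 9 of 596 summits (1.51%) and 1 of 931 (0.107%), a difference of 1.40 points (0.532 to 2.74). TEAD letters were less frequent at the members, at 14.6% against 24.2% (-9.57 points, -13.4 to -5.53). These differences remained clear of 0 with intervals widened for 17 comparisons, although that of HNF4 barely did, at 0.0120 to 3.75. The difference of RUNX (-2.43 points) did not, at -4.79 to 0.101. The windows also differed in base composition, with a mean GC content of 51.7% (SD 6.25, 596 windows) at the members and 56.0% (SD 5.87, 931 windows) at the B2B-only elements. Its part in the motif differences was not tested.

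Against the shared A549 elements, AP-1 letters were less frequent at the members (-8.93 points, -14.4 to -3.46), and this too was clear of 0 with the widened interval, at -17.1 to -0.646. NRF2 letters were nearly equal, at 22.0% and 22.7%, with a difference of -0.730 points and an interval of -5.64 to 4.14. Shares were also close for NRF2 letters apart from AP-1 (15.8% and 15.6%), CEBP (13.6% and 11.3%), FOXA (7.72% and 7.25%) and HNF4 (1.51% and 1.34%). The interval of each of these differences held 0, so these letters were not particular to the members. TEAD letters were at 14.6% and 19.3%, and the widened interval of that difference, -11.4 to 1.98 points, held 0.

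**Figure D4:**
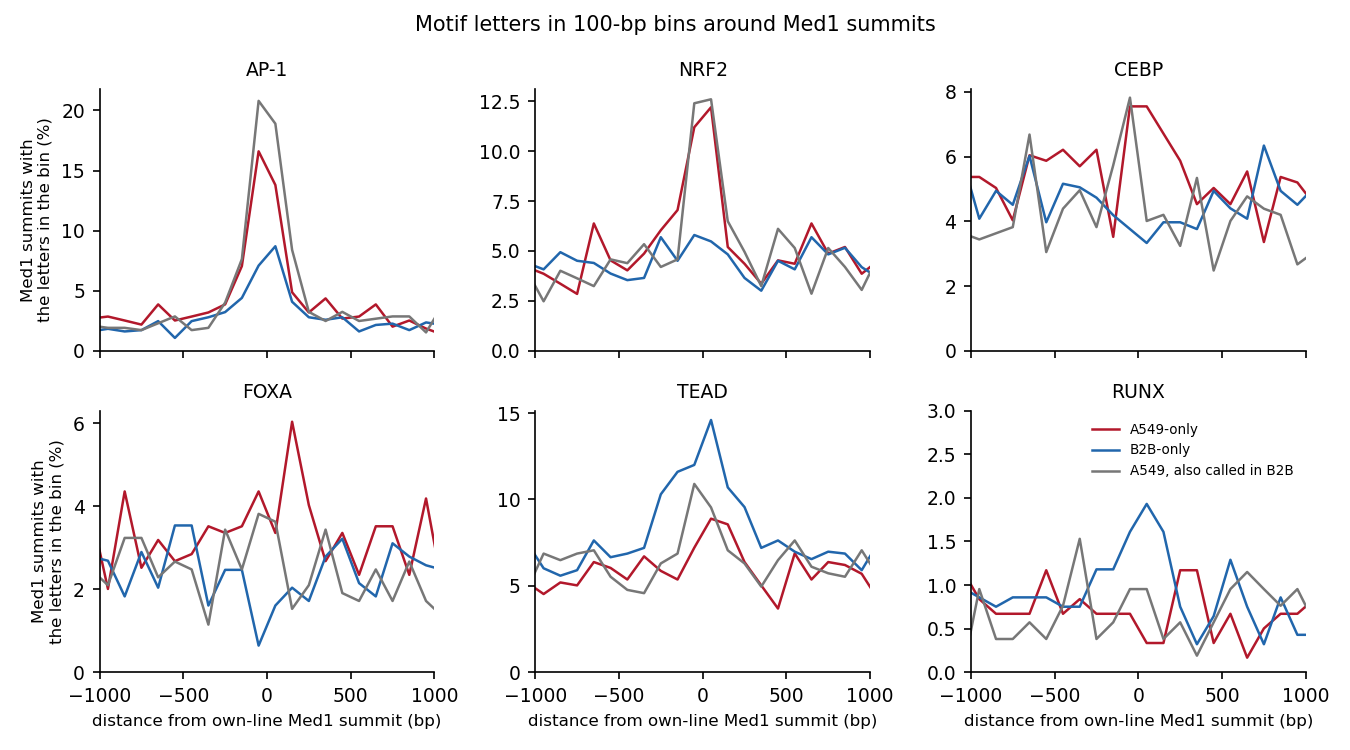
Share of Med1 summits (vertical axis, percent) with the letters of 6 motifs in 100-bp bins by distance from the own-line Med1 summit (horizontal axis, bp), for the A549-only, B2B-only and shared A549 distal enhancers. AP-1 rises at the centre in all 3 sets, NRF2 in both A549 sets and hardly in the B2B-only set, and TEAD most in the B2B-only set.

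Within the members, AP-1 letters went with the Jun-family peaks. They lay under 149 of 372 summits with a Jun-family peak in A549 (40.1%, 35.2 to 45.1) and 15 of 224 without (6.70%, 4.10 to 10.8), a difference of 33.4 points (27 to 39). NRF2 letters were found in 26.3% and 14.7%, a difference of 11.6 points (4.89 to 17.8). For NRF2 letters apart from AP-1 the shares were 18.0% and 12.1%, and the interval of the difference, -0.119 to 11.5 points, held 0. At members with a Jun-family peak in B2B the AP-1 share was 54.5% (46.4 to 62.5).

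Around the Jun-family summits themselves, AP-1 letters lay under 60.0% of the 330 JunB peaks at members (54.6 to 65.1; 51.4% of all JunB peaks), 54.1% of the 340 Jun peaks (48.8 to 59.3; 47.7%) and 77.1% of the 109 JunD peaks (68.3 to 84.0; 39.3%). NRF2 letters lay under 30.3% of these JunB peaks (25.6 to 35.5) against 14.3% of all JunB peaks, and under 28.5% of these Jun peaks (24.0 to 33.5) against 14.2%. Apart from AP-1 letters, the NRF2 shares were 17% against 9.63% at JunB and 17.6% against 10.4% at Jun. At JunD they were nearly equal, at 11.0% (6.41 to 18.3) against 10.2%. CRE letters, the full palindrome of the related CREB and ATF factors, were found under 1 JunB and 1 Jun summit at members.

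The members were assigned to the protein-coding gene with the nearest start site, within 100 kb, as a position and not a link to a promoter. A start lay within 100 kb of 86.5% of members (83.6 to 89.0), and the median distance over all was 19096 bp. In total 373 genes were nearest to a member, which is 2.97% of the 12569 protein-coding genes on chromosomes 1 to 12. For B2B-only elements 566 genes were found, or 4.50%. The 2 lists of genes shared 23, which is 6.17% of the first and 4.06% of the second.

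Among the 16 gene lists, that of NRF2 targets stood furthest above its background. Of its 17 genes on these chromosomes, 11 were nearest to a member (64.7%, 41.3 to 82.7), against 2.97% of all coding genes, and none to a B2B-only element (0%, up to 18.4). The 11 genes held 31 members. TXNRD1 and PGD, an NADPH-forming enzyme of the pentose phosphate pathway, had 5 members each, AKR1C2 had 4, and AKR1C1, AKR1C3 and UGDH, which makes UDP-glucuronate, had 3 each. SLC7A11, the cystine transporter, FTH1, the ferritin heavy chain, and AKR1B10 had 2 each. ABCC2, a conjugate exporter, and ME1, malic enzyme, had 1 each. These members lay close to the starts, with a median distance of 5310 bp against 20504 bp for the others, and when every start site was kept more than 5 kb away 8 of the 17 genes (47.1%) retained a member, against 2.17% of all coding genes. The list was drawn up with earlier results of these data known and is no independent evidence.

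**Figure D5:**
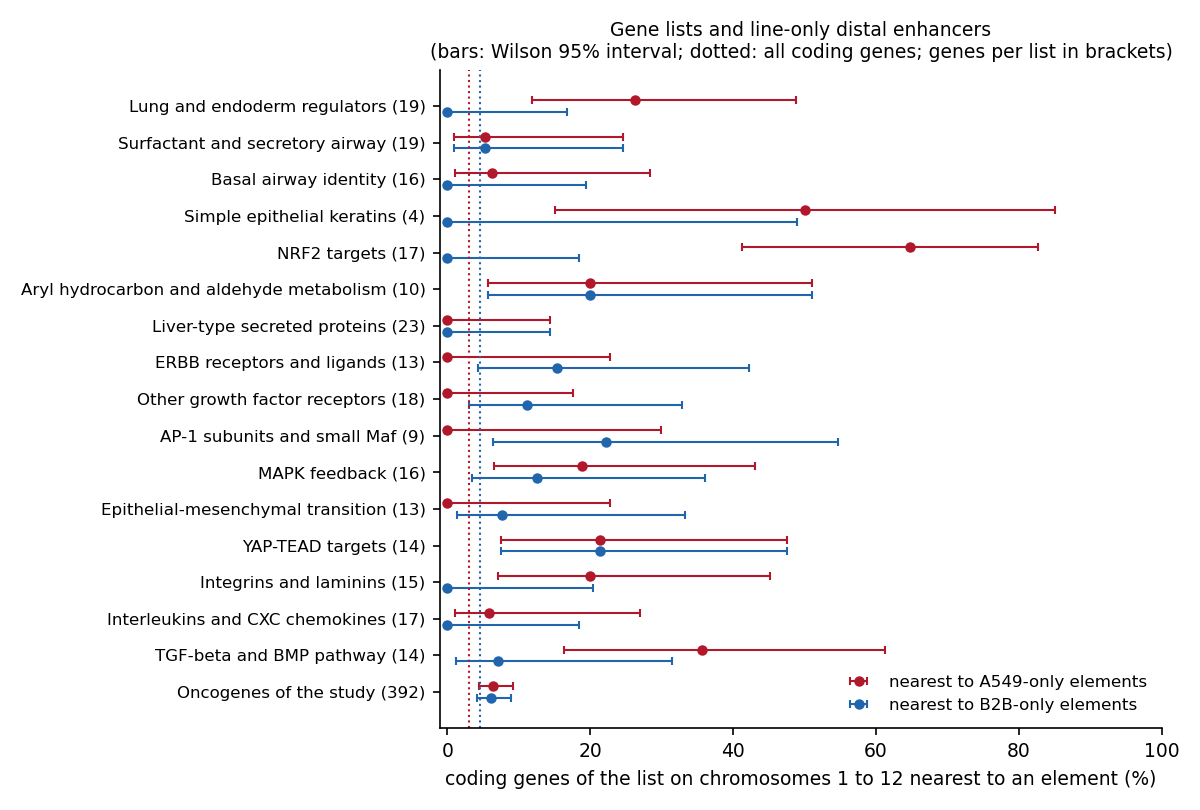
Share of the genes of each list on chromosomes 1 to 12 (horizontal axis, percent; number of genes in brackets) that were nearest to an A549-only or a B2B-only distal enhancer within 100 kb, with Wilson 95% intervals. Dotted lines mark the share over all coding genes for each set; NRF2 targets reach 64.7% for A549-only elements and 0% for B2B-only elements.

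The Med1 fold enrichment of the 31 members beside NRF2 targets ran from 4.36 to 49.7 with a median of 6.30, no higher than the median of 6.62 over the other members. They had fewer Jun-family peaks: 8 of 31 (25.8%, 13.7 to 43.2) had one in A549, against 388 of 599 others (64.8%, 60.9 to 68.5), a difference of -39 points (-51.6 to -21.1). The 31 members fell into 15 runs and are not independent of each other. The difference was -34.8 points (-52.3 to -8.35) for elements more than 5 kb from a start site. Pol II met 61.3% of them and 79.0% of the others (-17.7 points, -35.4 to -2.31). NRF2 letters were no more frequent at their 27 Med1 summits, at 18.5%, than at the other 569, at 22.1%, although the interval of the difference, -14.6 to 14.8 points, is wide.

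The values by locus were uneven. At PGD none of the 5 members had a Jun-family peak, with Med1 between 5.71 and 7.18 and H3K27ac between 8.47 and 11.2. Near UGDH, 1 of 3 members had Jun, at 36.0, and Med1 at 22.0. The single ABCC2 element had Jun at 66.1, JunB at 6.61 and JunD at 4.95, with H3K27ac at 37.1. The promoters of these genes were not all silent in B2B: of the 11 genes, 11 had H3K4me3 within 1 kb of a start in A549 and 7 in B2B. Over all 17 genes of the list the counts were 17 in A549 and 13 in B2B, and the share of all coding genes was not counted. ABCC2, AKR1B10, AKR1C1 and AKR1C2 were the 4 without it in B2B. NFE2L2 itself, the NRF2 gene, was nearest to 1 member with Med1 at 8.57 and a Jun-family peak, and to no B2B-only element.

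Of regulators of lung and endoderm identity, 5 of 19 genes were nearest to a member (26.3%, 11.8 to 48.8) and 0 were nearest to a B2B-only element. Here and for the lists that follow, the shares over all coding genes were 2.97% for members and 4.50% for B2B-only elements. The epithelial ETS factors ELF3 and EHF had 3 members each and TBX3 had 2, with Med1 up to 4.21, 8.32 and 14.7. FOXP1 and NFIA had 1 each. Of TGF-beta and BMP pathway genes, 5 of 14 had a member (35.7%, 16.3 to 61.2), namely ID2, ID3, INHBB, SKIL and LTBP1, and 1 of 14 had a B2B-only element. KRT8 and KRT80 were 2 of 4 simple epithelial keratins with a member (50%, 15.0 to 85.0).

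Integrins and laminins had 3 of 15 genes with a member (20%, against 2.97% of all coding genes), ITGB5 with 3 elements and ITGB1 and LAMB1 with 1 each. Among genes of MAPK feedback, 3 of 16 had a member (18.8%), of which DUSP5, an ERK phosphatase, had 5, and 4 of those had a Jun-family peak. DUSP5 also had 1 B2B-only and 5 shared elements. YAP-TEAD targets were equal in genes, with 3 of 14 in each set (21.4%), but these held 5 A549-only and 13 B2B-only elements, 8 of the latter at AMOTL2. The genes were different: AMOTL1, TEAD1 and WWC1 for the members, and AMOTL2, ANKRD1 and CRIM1 for B2B-only elements. For aryl hydrocarbon and aldehyde metabolism the counts were 2 of 10 in each set (20%), with AHR and ALDH1A1 for the members.

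No gene was nearest to a member among 23 liver-type secreted proteins, 13 ERBB receptors and ligands, 18 other growth factor receptors, 9 AP-1 subunits and small Maf genes or 13 genes of epithelial-mesenchymal transition. Counts of 0 of 13 and 0 of 9 allow shares of up to 22.8% and 29.9%. B2B-only elements were nearest to EGFR and HBEGF in the ERBB list and to FOSL2 and BATF3 in the AP-1 list. A single gene had a member among surfactant and secretory genes (LPCAT1 of 19), basal airway genes (PERP of 16) and interleukins and CXC chemokines (IL6 of 17). Over all coding genes the shares were 2.97% for members and 4.50% for B2B-only elements. In lists this short, a count of 0 or a single gene is therefore no result about the members.

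Of the study's oncogene symbols, 392 were coding genes on chromosomes 1 to 12, and 25 of them were nearest to a member (6.38%, 4.36 to 9.24), against 2.97% of all coding genes. For B2B-only elements the number was 24 (6.12%, 4.15 to 8.95), against 4.50%. The strongest by Med1 was 66.4 kb upstream of MYC, with Med1 at 20.4, H3K27ac at 15.4, JunB at 17.5, Jun at 11.4 and JunD at 5.19. JAK1 had 2 members with Med1 up to 14.4. WWTR1, which encodes the co-activator TAZ, and KLF4 had 1 each, at 11.4 and 9.39.

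Members lay in introns in 56.2% of cases (52.3 to 60.0), between genes in 37.9% (34.2 to 41.8) and in exons, noncoding genes included, in 5.87% (4.29 to 7.99). They were as often upstream (49.5%) as downstream of the nearest start. With neighbours joined over the distance customary for stitching super-enhancers, the 630 members formed 477 runs, of which 374 held 1 member, 71 held 2 and 32 held 3 or more. The share of elements in runs was 40.6% (36.9 to 44.5), near the 42.2% (39.2 to 45.3) of B2B-only and 40.5% (36.5 to 44.6) of shared elements.

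The largest run had 8 members over 17.8 kb at chr10:46529806-46547592, nearest to GPRIN2. Its Med1 fold enrichment ran from 5.37 to 31.8 and its H3K27ac from 5.34 to 40.9, and 2 of the 8 had a Jun-family peak in A549. Runs of 5 members were found at PGD, within the gene, at TOMM20 over the noncoding LINC01348 region, and in AOPEP, an aminopeptidase gene. A Jun-family peak met 0, 4 and 1 of these 5. Of 7 runs with 4 members, the first in genome order was nearest to NENF, a secreted neurotrophic protein, with Med1 from 5.04 to 24.9 and a Jun-family peak at 3 of 4. No member of the first 4 of these runs had a Jun-family peak in B2B.

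Members without a Jun-family peak in either line numbered 230. Their Med1 values do not all stand for sites free of Jun-family peaks. The 5 highest were at AKR1B10, where the Med1 summit was at a promoter, at UGT1A6 (36.6), at GPRIN2 (31.8), at AKR1C2 (27.3) and 67.1 kb from ANKRD46 (24.6). The GPRIN2 member shared its Med1 summit with a neighbouring member that had Jun at 50.1 and JunB at 14.0. The AKR1C2 member likewise shared its summit with a member that had Jun at 18.9 and JunB at 10.6.

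The members were unevenly spread over chromosomes. Chromosome 10 held 89 (66.5 per 100 Mb, against 44.8 for B2B-only elements), and chromosome 12 had 45.0 against 32.3. Chromosome 3 held 21 (10.6 per 100 Mb against 51.4), and chromosome 5 had 17.6 against 62.2. Per 1000 A549 H3K27ac peaks, the members numbered 38.8 on chromosome 10 and 9.98 on chromosome 3. The densest stretch of 5 Mb was chr10:5000001-10000000, with 17 members nearest to AKR1C, UCN3, PFKFB3 and GATA3 genes. A549 is not diploid, and copy number was not measured in these lists, so that it cannot be told apart from enhancer density.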

How the data were processed

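ChIP-seq peak lists of A549 and B2B were used. Per the labels and the study's methods, the authors aligned reads to hg38 with Bowtie2 2.4.4, removed duplicates, merged the 2 replicates of each group and used SAMtools 1.13 for CPM scaling. Peak calling was by MACS2 2.2.7.1. The caller's options and control are not given in the sources used here. In each deposited list, the score is 10 times −log10 q, fold enrichment is the ratio at the summit, and significance is given as −log10 of a p-value and of a q-value. No deposited peak had a q-value above 0.01. Several stop before the last chromosome, so chromosomes 1 to 12 were used. The 4 input samples were not analysed here. Total read depth is unknown.

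Intervals were intersected at a minimum of 1 bp in Python 3.11.15 with GENCODE 44, and sequence was read with pysam 0.24.0. Shares have Wilson intervals (SciPy 1.17.1) and differences Newcombe intervals, both at 95% and for counting error only. Pileups were solved from fold enrichment and p-value, assuming a Poisson tail. Overlaps, intervals, motif search and solver were checked on made data or against bedtools 2.31.1.

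Named elements were the 10 highest by Med1 and the 5 highest by summed Jun-family fold enrichment (1 per run), the 5 largest runs, the 5 highest without Jun-family peaks and the strongest of each gene list. Oncogene symbols came from the study's list. The 618 symbols were matched to coding genes, 605 directly and 7 through older RefSeq symbols. The members and gene lists were chosen with earlier results of these data known. Some items withheld for evaluation are not reported here.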

Additional observations from a re-analysis of the deposited data

How the results depend on the processing

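No paired analysis was possible because the authors merged the replicates of each group before peak calling, which also prevented leaving out a replicate. Over 15 alternative settings, 179 of 204 recomputed values were little changed, which for a share or a median means within its 95% interval, for a count within 1.5 times and for a difference the same sign and clear of 0, and all 68 differences between A549-only and B2B-only elements kept their sign and stayed clear of 0. The number of members, set by each rule, ran from 435 (more than 5 kb from a start site) to 630, and that of nearest genes from 273 to 418. The setting that left out 1 Mb bins without a start site removed no member and changed no value. Its values are counted above among those little changed, but they could not have moved.

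The other 25 values moved. With 1 element per run, A549 JunB met 59.1% and Jun 60.0% of members. With Jun-family lists of equal length, A549 JunB met 35.7%, because the longer list was shortened. With H3K27ac and Med1 at −log10 q of 5 or more, A549 pol II met 81.8%. Other settings were chosen after seeing the data. In a fixed window of 250 bp to each side of the Med1 summit, which was wider than most elements, the A549 shares were 64.9% (JunB), 66.9% (Jun), 32.7% (JunD) and 82.9% (pol II), and the B2B shares 10.4% (JunB), 33.7% (Jun), 7.72% (JunD), 7.72% (pol II) and 22.5% (CTCF). With pol II lists of equal length, A549 pol II met 69.7%. NRF2 letters apart from AP-1 letters were found at 15.8% of summits.

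Motif shares moved with the length searched. With 50 bp to each side they were 16.1% for AP-1, 13.1% for NRF2, 6.54% for TEAD, 8.72% for CEBP and 4.36% for FOXA. With 250 bp to each side they were 37.8%, 34.2%, 29.9%, 26.7% and 19.1%.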
